A study of Mus musculus with 10 samples.

Results

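The serpin genes were taken as every row of a mouse ATAC-seq table whose gene symbol starts with Serpin. There were 61 such genes among 21965 in the table, in clades A (24 genes), B (26), C (1), D (1), E (3), F (2), G (1), H (1) and I (2), the clade being the letter after Serpin. ATAC-seq measures how readily a transposase cuts chromatin, so each value is an accessibility signal at a gene and not its expression. The fibroblasts (MEFs) came from mouse embryos of embryonic day 13.5, carried GFP under the Oct4 promoter and were used within a few passages, with the strain labelled ICR and the cells called OG2-MEFs in the protocol. All were kept in mESC medium after infection with pMXs retroviruses made in plat-E cells, and about 50000 living cells went into each library.

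The 10 conditions, with 1 library each, differed in the viruses added. Flag cells received a Flag control virus. By their labels, Sox2, Klf4 and Oct4 cells each received that factor alone, and Oct4-L80A cells a mutant form of Oct4. The library labelled Oct4 also had a high signal at the Sox2 gene, given below. SKO cells received Sox2, Klf4 and Oct4 together, and SKO+shBrg1 cells also a short hairpin against Brg1. SKO-L80A cells received Sox2, Klf4 and the Oct4 mutant, without further addition, with vitamin C at 50 µg/ml in the medium (SKO-L80A+Vc) or with a virus for Gadd45a (SKO-L80A+Ga). The table has 2 columns per condition. Their relation, not given in the sources used here, was left aside: they were taken as repeat measurements of 1 sample, and both values are printed as column 1 and column 2. With 1 library per condition no replicate error exists and no test was made, and a difference describes 2 libraries. In such bulk libraries, fewer cells of a kind and less accessibility per cell cannot be told apart.

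Serpins are a superfamily of proteins named for the inhibition of serine proteases. A typical serpin offers a reactive loop as bait, and once the protease cuts it the serpin changes shape and holds the protease in a dead complex. Most clade A members, antithrombin (Serpinc1) and heparin cofactor II (Serpind1) are blood proteins made mainly in liver, clade B members are mostly intracellular and many are found in epithelia and leukocytes, and Serpine2, Serpinf1 and Serpinh1 are familiar products of fibroblasts and other mesenchymal cells.

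Most serpin genes had little signal in these fibroblasts. The median member had a mean signal of 0.526 in Flag, against 6.03 for the median gene of the table. A minimum signal of 6.92, which is the median over every value of the table, was used throughout for a call. In Flag, 6 of 61 members (9.84%) reached it, against 47.0% of all genes, and in at least 1 of the 10 conditions 9 of 61 members (14.8%) did, against 58.7% of all genes. The number at the minimum was 5 in Sox2, Klf4 and Oct4-L80A, 6 in the library labelled Oct4, 8 in SKO, 9 in SKO+shBrg1 and SKO-L80A, and 7 in SKO-L80A+Vc and SKO-L80A+Ga. The heat map of all members shows these few open genes as bright rows among dark ones.

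**Figure D1:**
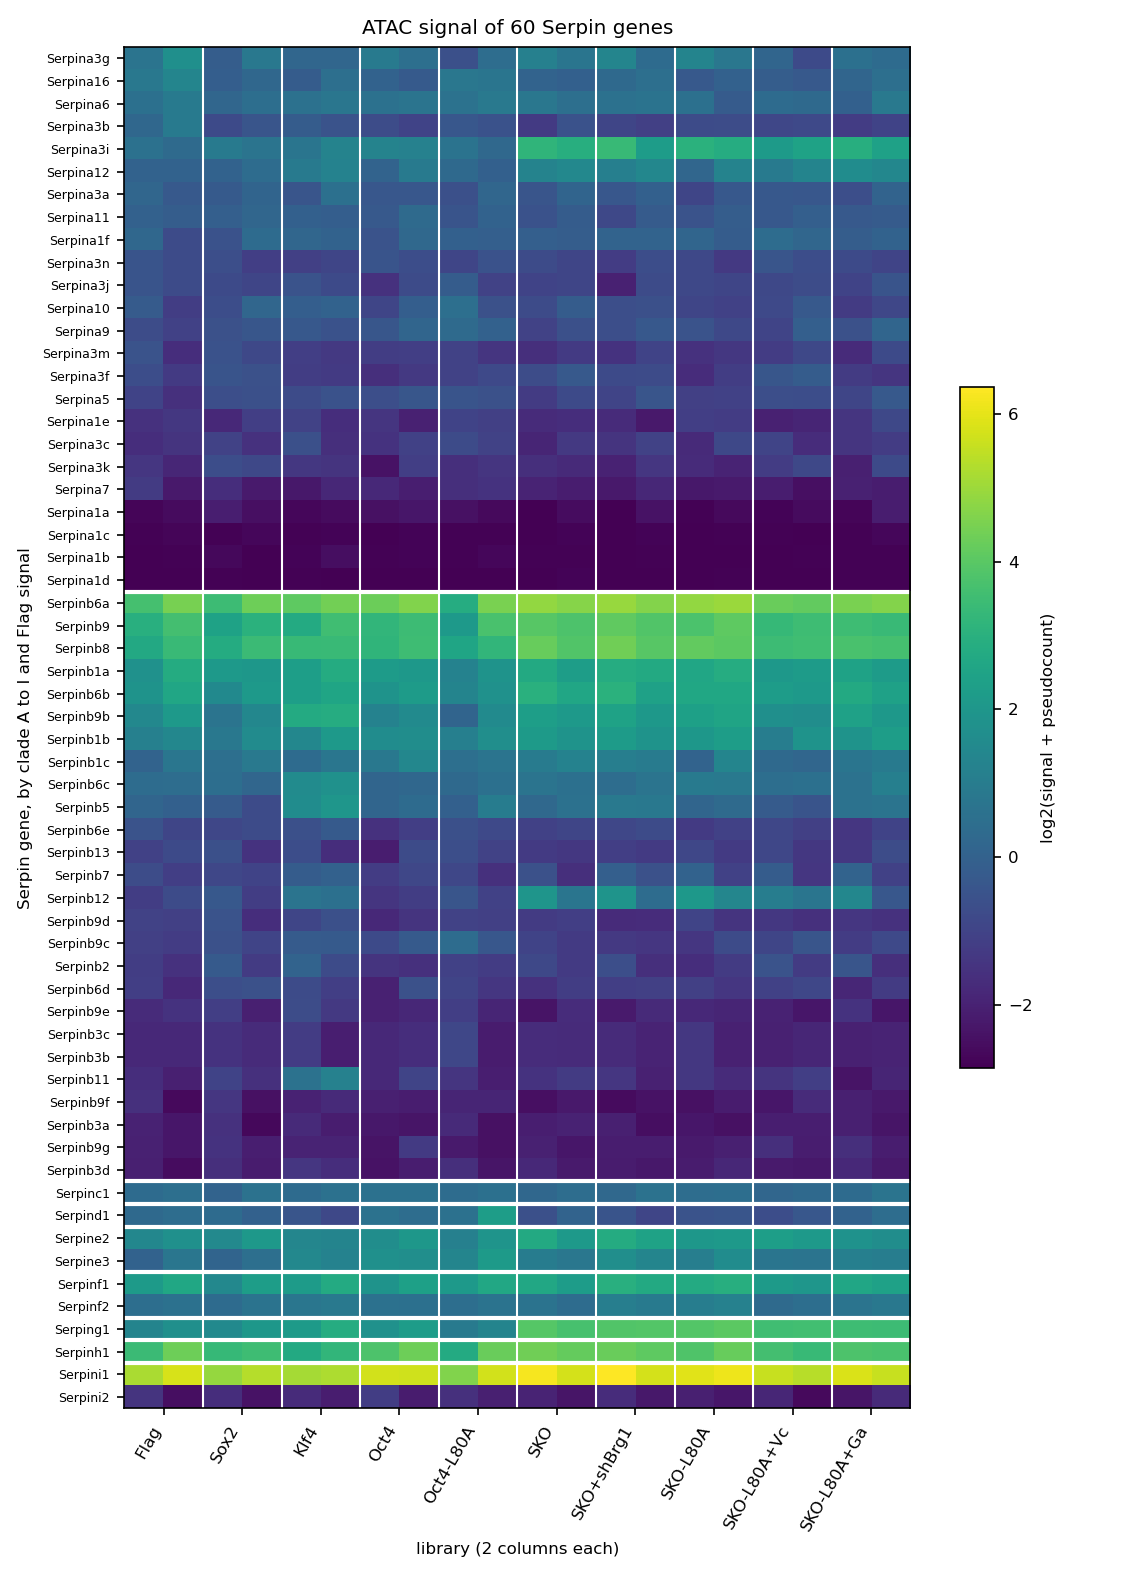
Accessibility of 60 serpin genes, as log2(signal + pseudocount) of the deposited values (colour, not centred), in the 2 columns of each of 10 libraries. Rows are sorted by clade from A to I and, within a clade, by Flag signal. Serpini1, Serpinb6a, Serpinh1, Serpinb9 and Serpinb8 are bright in Flag, and Serpina1a, Serpina1b, Serpina1c and Serpina1d are the darkest rows.

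The open members in Flag had mixed roles. Serpini1 (neuroserpin, an inhibitor of tissue plasminogen activator; chromosome 3, 75557493 to 75642523) had the highest signal of the family, 36.5 in column 1 and 55.4 in column 2. Serpinb6a, an intracellular inhibitor of cathepsin G, had 12.4 and 22.2, and Serpinh1, the collagen chaperone HSP47, had 10.7 and 19.9. Serpinb9, an intracellular inhibitor of granzyme B, had 7.70 and 11.98, and Serpinb8, an intracellular clade B inhibitor, had 6.45 and 10.3. In each of these, column 2 was above column 1, as for the table as a whole. Below them, and under the minimum, came Serpinf1 (PEDF, a secreted anti-angiogenic serpin without protease inhibition) with 4.37 and 6.06 and Serpine2 (protease nexin-1, an inhibitor of thrombin and plasminogen activators) with 2.53 and 3.26.

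The liver and blood serpins were at the other end. Of 24 clade A genes, 17 had a mean signal below 1 in all 10 conditions, and only Serpina3i ever reached the minimum. The lowest Flag means of the family belonged to the alpha-1-antitrypsin copies Serpina1d (0.00230), Serpina1b (0.00367), Serpina1c (0.00892) and Serpina1a (0.0211), followed by Serpinb3d (0.0705). Serpina1a had 0.0147 and 0.0274 in Flag and at most 0.0968 in any of the 20 columns. The 300-base windows at the starts of Serpina1a, Serpina1b, Serpina1c and Serpina1d are near copies, with 92.5% identity between Serpina1a and Serpina1b. Reads that fit several copies may have been lost or split, so these low values are uncertain. Serpina1e, whose window is 97.6% identical to that of Serpina1b over 250 aligned columns, had more signal, 0.207 and 0.255 in Flag. Serpinc1 had 1.16 and 1.29 in Flag and stayed between 0.911 and 1.47 in all columns. Serpinf2, the plasmin inhibitor alpha-2-antiplasmin, had 1.25 and 1.34 in Flag. Serpina3n, an acute-phase inhibitor, had 0.588 and 0.465 and no column above 0.602. In clade B, 14 of 26 genes had a mean signal below 1 in all conditions and 3 reached the minimum, and Serpinb2 (PAI-2) had 0.308 and 0.204 in Flag with a highest value of 0.917. The defining hepatocyte markers were low too: 0 of 8 reached the minimum in Flag, and their summed signal ranged from 7.62 to 19.2 over the 20 columns.

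Serpin genes lie in 3 arrays, and low signal ran through them. An array was defined as neighbouring members less than 1000000 bases apart, with at least 3 members. On chromosome 1 (106861175 to 107608978) 11 clade B genes lie together, on chromosome 12 (103616675 to 104414334) 23 clade A genes, and on chromosome 13 (32842092 to 34002794) 15 clade B genes. In Flag, 1 of 11, 0 of 23 and 2 of 15 members of these arrays reached the minimum, and 10, 18 and 7 had a mean signal below 1. Of the open members, Serpinb8 is the last gene of the chromosome 1 array and Serpinb6a the last of the chromosome 13 array. The value of Serpinb6a was the same as that of Ripk1, as described below. Serpinb9 lies 155 kb from the start of the chromosome 13 array, after Serpinb1a, Serpinb1c and Serpinb6b. Between Serpinb9c and Serpinb6e on chromosome 13 every member had a Flag mean below 1. Of the 12 genes that flank the arrays, the nearest 2 on each side, 7 reached the minimum in Flag, among them Kdsr at 24.9 and 43.9 and Vps4b at 11.4 and 19.0 before the chromosome 1 array, Ppp4r4 at 8.76 and 12.6 before the chromosome 12 array and Wrnip1 at 20.6 and 29.6 before the chromosome 13 array. The other 5 were under it. After the chromosome 1 array came Cdh7 with 0.962 and 1.94 and Cdh19 with 0.106 and 0.0466, but 2373 and 3279 kb from Serpinb8. Ifi27l2b had 0.392 and 0.823 before and Gsc 2.83 and 4.34 after the chromosome 12 array, and Mylk4 0.530 and 0.880 before the chromosome 13 array. Inside the span of the chromosome 13 array, Nqo2, which is no serpin gene, had 10.9 and 20.8.

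**Figure D2:**
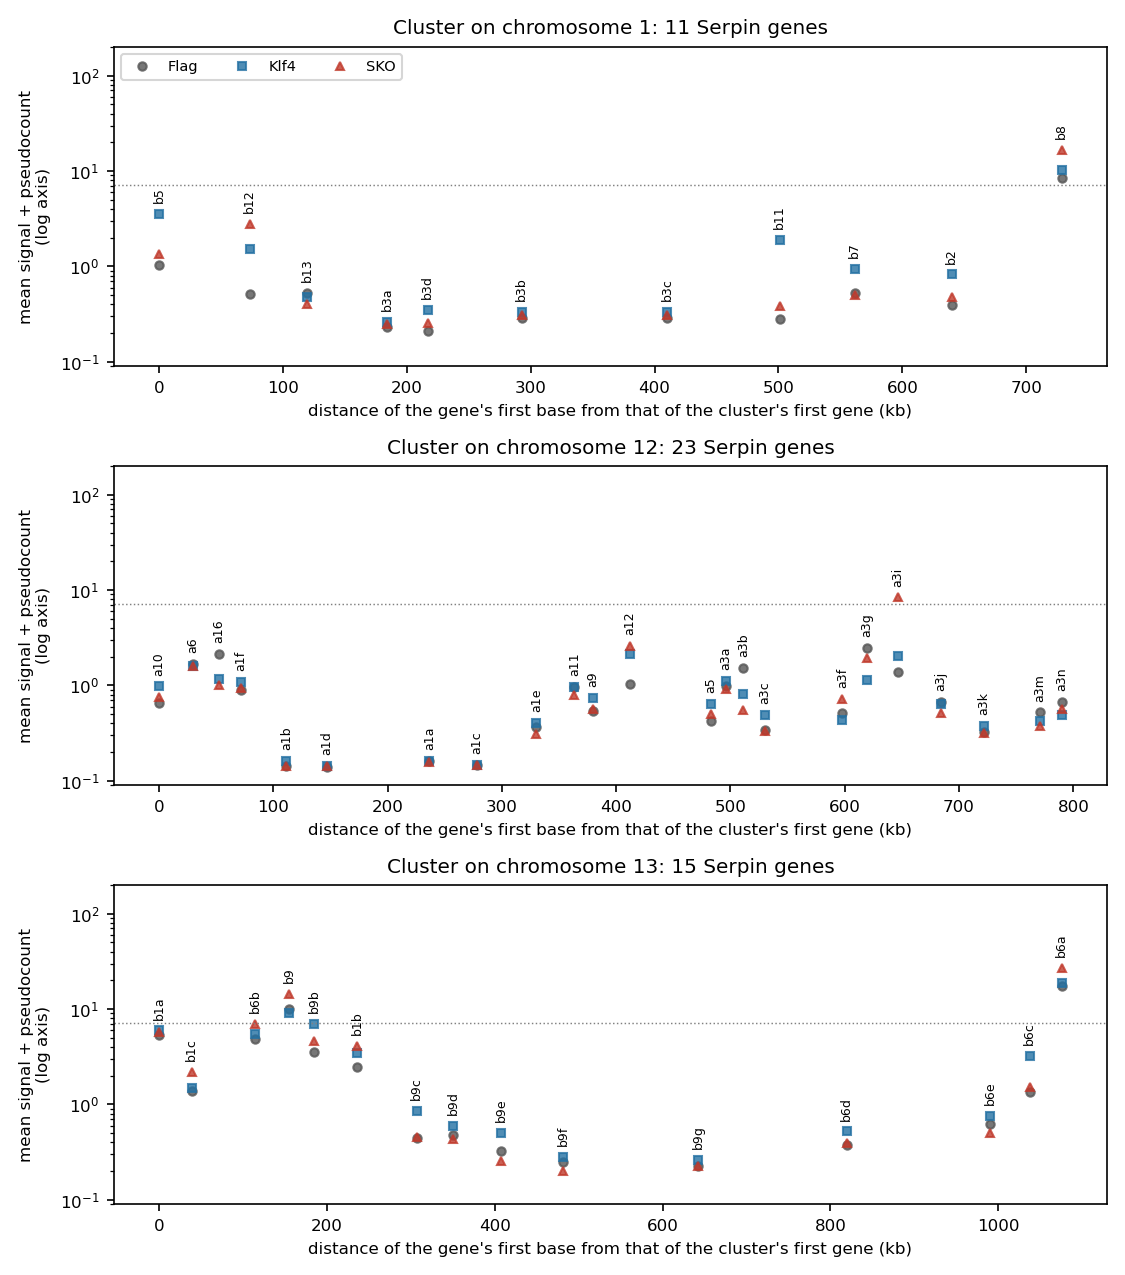
Mean signal plus pseudocount (log axis) in Flag, Klf4 and SKO against the distance of each gene's first base from that of the first gene of its array (kb), for the arrays on chromosomes 1, 12 and 13. The dotted line marks the minimum signal, which Serpinb8, Serpinb9 and Serpinb6a pass in Flag and Serpina3i passes in SKO.

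The value printed for a gene can belong to its neighbour. Serpini1 held the same signal as Pdcd10 in all 20 columns within 1%, and Serpinb6a the same as Ripk1, an NF-κB and cell death kinase. Their starts are 641 and 431 bp apart. Across the table, 77.1% of 654 pairs of adjacent genes with starts less than 500 bp apart held the same values by this criterion, as did 70.0% of 110 pairs from 500 to 1000 bp, 37.1% from 1000 to 2000 bp, and 2.64% from 5000 to 10000 bp. The signal of the 2 highest serpin genes can therefore not be told apart from that of Pdcd10 and Ripk1. One pair of near copies at a distance was also close: Serpinb3b and Serpinb3c, whose start windows are 96.2% identical over 290 aligned columns, differed by at most 0.00119 in any column. Other near copies were not, since Serpinb9e and Serpinb9f, 99.3% identical over 285 columns, differed by up to 0.354 at highest signals of 0.474 and 0.246.

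**Figure D3:**
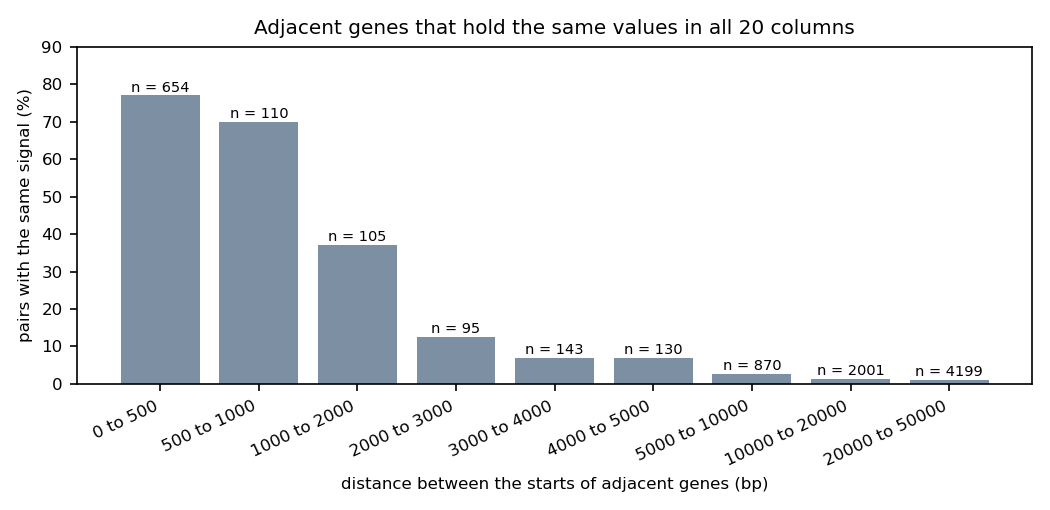
Share of adjacent gene pairs (%, bars, whole table) whose signals agree within 1% in all 20 columns, by the distance between their starts (bp), with the number of pairs (n) above each bar. The share drops from 77.1% under 500 bp to 2.64% between 5000 and 10000 bp.

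Depth is unknown, since the table gives no read counts. Column sums ran from 112439 to 370390 and column medians from 3.38 to 11.8, while the 25th percentile stayed between 0.760 and 1.08. Differences were therefore taken on log2(signal + 0.138) with each column centred on its median gene, averaged over both columns, and the value on the signal as deposited is given where it matters. In SKO against Flag the column medians moved by 0.73 (log2), and the median of all genes was -0.23 centred and 0.50 as deposited. A member was called higher or lower at a difference of at least 2-fold (log2 of 1) where the higher of the 2 mean signals reached the minimum. Folds on this scale understate the change of low genes. The factor genes matched the labels except that the library labelled Oct4 also had Sox2 signals of 62.9 and 55.2, against 2.73 and 5.12 in Flag. Of 10 fibroblast markers 7 reached the minimum in Flag, against 0 of 10 epithelial markers and 0 of 8 macrophage and leukocyte markers, and no marker was at 0 in every column.

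SKO was compared with Flag for the joint action of the 3 factors. Of 61 serpin genes 2 were higher, Serping1 and Serpina3i (3.28%, against 0.769% of all genes called higher), and 0 were lower (against 0.173% of all genes). As deposited the same 2 were higher, where 6.24% of all genes were. Serping1 encodes the C1 inhibitor, which controls the first proteases of the complement and contact systems. Serpina3i is one of the mouse Serpina3 copies, relatives of alpha-1-antichymotrypsin.

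Serping1 (chromosome 2, 84765360 to 84775444) had 2.34 and 3.21 in Flag, 2.72 and 3.93 in Sox2, 4.34 and 7.14 in Klf4 and 1.75 and 2.35 in Oct4-L80A. The library labelled Oct4 had 3.37 and 4.64. It had 14.9 and 12.6 in SKO, 14.4 and 14.7 in SKO+shBrg1, 14.8 and 16.3 in SKO-L80A, 11.5 and 11.7 in SKO-L80A+Vc and 11.1 and 11.01 in SKO-L80A+Ga. Every library with Sox2, Klf4 and a form of Oct4 was above every other library, and of the others Klf4 came nearest. SKO was 2.90-fold higher than Flag (log2 difference 1.54, with 1.37 in column 1 and 1.70 in column 2), and 4.81-fold as deposited. In rank among all genes Serping1 went from percentile 38.3 in Flag to 59.1 in SKO and 66.4 in SKO-L80A+Vc. The nearest genes of the table did not pass 2-fold: the difference was 0.05 for Gm19426 and 0.04 for Ypel4 on one side, and -0.29 for Ube2l6 and -0.63 for Smtnl1 on the other.

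Serpina3i (chromosome 12, 104263045 to 104269509) had 1.37 and 1.11 in Flag, 1.77 and 1.48 in Sox2, 1.51 and 2.26 in Klf4 and 1.43 and 1.05 in Oct4-L80A. The library labelled Oct4 had 2.25 and 2.17. It had 8.96 and 7.49 in SKO, 10.2 and 4.56 in SKO+shBrg1, 8.09 and 7.02 in SKO-L80A, 4.33 and 5.40 in SKO-L80A+Vc and 7.44 and 5.17 in SKO-L80A+Ga. The 2 sets of libraries did not overlap here either, although the columns of SKO+shBrg1 lay far apart. SKO was 3.67-fold higher than Flag (log2 difference 1.87, with 1.36 and 2.38 in the columns), and 6.08-fold as deposited. Its rank went from percentile 29.7 to 46.5. Centred, the neighbouring Serpina3 copies differed by -0.997 (Serpina3g), -0.23 (Serpina3f), -1.10 (Serpina3j) and -0.77 (Serpina3k), all under the minimum signal. Genes of the table with a Flag mean below 1 had a median of -0.73 centred and 0.00 as deposited. The deposited means in Flag and SKO were 0.376 and 0.582 for Serpina3f, 0.526 and 0.373 for Serpina3j, and 0.189 and 0.176 for Serpina3k. Serpina3g, the nearest copy, was highest in Flag, at 1.47 and 3.21, and had 2.11 and 1.52 in SKO.

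Serpina3i and Serpina3g stood next to each other with signals that differed in SKO, so their start windows are shown for comparison. The windows cover 250 bases before to 50 after the start in the RefSeq window table, on the plus strand (GRCm38.p6; for Serpina3i a start just inside the span above), at chr12:104262872-104263171 for Serpina3i and chr12:104235897-104236196 for Serpina3g. They align over 233 columns, 184 of them identical (79.0%), and capitals mark the bases that differ within the aligned part.
Serpina3i: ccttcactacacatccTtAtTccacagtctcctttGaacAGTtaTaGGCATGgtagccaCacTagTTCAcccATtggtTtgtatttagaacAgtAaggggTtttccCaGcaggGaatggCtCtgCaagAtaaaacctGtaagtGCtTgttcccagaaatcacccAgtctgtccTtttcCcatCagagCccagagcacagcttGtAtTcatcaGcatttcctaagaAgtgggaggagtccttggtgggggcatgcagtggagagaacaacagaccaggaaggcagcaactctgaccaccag
Serpina3g: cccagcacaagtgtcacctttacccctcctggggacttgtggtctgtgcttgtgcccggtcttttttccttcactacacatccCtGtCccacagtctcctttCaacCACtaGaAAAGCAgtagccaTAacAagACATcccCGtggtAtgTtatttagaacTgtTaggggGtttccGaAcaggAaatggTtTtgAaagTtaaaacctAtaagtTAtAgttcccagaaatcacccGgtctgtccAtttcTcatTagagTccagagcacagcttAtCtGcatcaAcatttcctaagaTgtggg
Neither window held a match to any of 4 motifs searched on both strands in windows of this length: GGGNGTGG (Klf), ACAATG (Sox), ATGNAAAT (octamer) and TGANTCA (AP-1). The share of all 32851 windows with a match was 17.6%, 12.6%, 5.67% and 7.81% in the same order. Of the 61 windows of the 52 members in that table, 6, 7, 3 and 11 held one. The reads behind the gene's value may lie outside the window, and Serping1 had no entry.

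No other serpin separated the 2 sets of libraries. In all 10 columns of the 5 libraries with Sox2, Klf4 and a form of Oct4, only Serping1 and Serpina3i lay above all 10 columns of the other libraries (2 of 61, against 0.428% of all genes on the centred scale). The same 2 did so as deposited (0.97% of all genes) and in percentile rank (0.592%), and on each of these scales 0 members lay below (0 of 61, against 0.196% of all genes on the centred scale). Serpinb12, an intracellular clade B serpin of epithelia, came close but under the minimum signal, and was the one member added to the higher calls when no minimum was set (3 of 61, against 1.33% of all genes). It had 0.299 and 0.457 in Flag and 1.48 and 1.32 in Klf4. It had 3.77 and 1.53 in SKO, 3.67 and 1.19 in SKO+shBrg1, 4.003 and 2.44 in SKO-L80A, 1.93 and 1.53 in SKO-L80A+Vc and 2.53 and 0.646 in SKO-L80A+Ga. Column 1 was the higher one in these libraries, and column 2 lay below both Klf4 columns in SKO+shBrg1 and SKO-L80A+Ga. Serpinb8, already open in Flag, had 18.6 and 14.4 in SKO, a log2 difference of 0.26 centred and 0.99 as deposited.

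**Figure D4:**
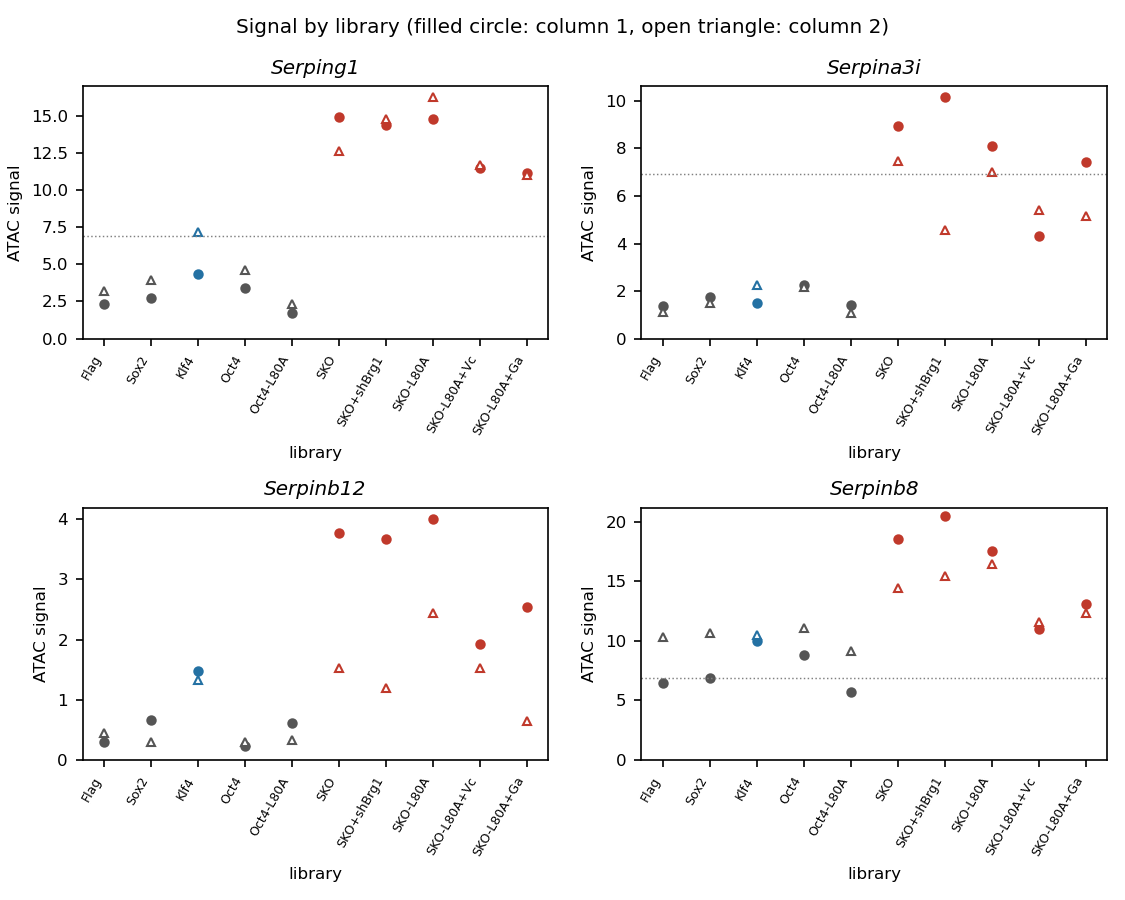
Deposited signal of Serping1, Serpina3i, Serpinb12 and Serpinb8 in the 10 libraries, with column 1 as filled circles and column 2 as open triangles. Grey marks Flag, Sox2, Oct4 and Oct4-L80A, blue Klf4 and red the libraries with Sox2, Klf4 and a form of Oct4, and the dotted line is the minimum signal. Red and other points do not overlap for Serping1 and Serpina3i.

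Marker genes of other cells were summed as deposited, a scale on which the median over all genes was 0.50 higher (log2) in SKO than in Flag. The sum of 10 epithelial markers was 15.3 and 24.4 in Flag and 56.1 and 49.3 in SKO. Cldn3 and Krt8 were called higher (2 of 10, against 0.769% of all genes). The 8 macrophage and leukocyte markers summed to 16.4 and 23.8 in Flag and 44.8 and 30.0 in SKO, the 8 hepatocyte markers to 8.51 and 14.3 and to 19.0 and 17.3, and the 10 fibroblast markers to 129 and 194 and to 212 and 166. Of the hepatocyte and the leukocyte markers none was called higher in SKO. On the centred scale the median difference was 0.08 for the epithelial, -0.17 for the leukocyte, -0.44 for the fibroblast and -0.65 for the hepatocyte markers, against -0.23 for all genes. Whether these markers had a part in the signal of Serping1 and Serpina3i was not tested.

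The remaining members gave a direction in SKO only with the scale. Their median difference was -0.67 centred and 0.06 as deposited, over all 61 members, against -0.23 and 0.50 for all genes. The 37 members with a Flag mean below 1 had a median of -0.72 centred and 0.01 as deposited, and the 5870 genes of the table in that range had -0.73 and 0.00. In clade A, 2 of 24 members were above 0 centred and 9 as deposited, and in clade B 2 of 26 and 20, against 24.2% and 83.9% of all genes. Without the minimum signal 10 members were lower in SKO, against 6.76% of all genes. As deposited, with the minimum, 0 members were lower (0.0182% of all genes).

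Klf4 was compared with Flag for the action of Klf4 alone. Of 61 members 0 were higher (against 0.519% of all genes) and 1, Serpinh1, was lower (1.64%, against 0.241% of all genes). Serpinh1 assists the folding of collagen in the endoplasmic reticulum. It lies on chromosome 7, 99345375 to 99353239. Flag had 10.7 and 19.9 and Klf4 6.50 and 9.01, a log2 difference of -1.04 (-1.01 and -1.08 in the columns), which put it just past 2-fold. As deposited the difference was -0.92 and no longer a call (0 of 61, against 0.141% of all genes). The library labelled Oct4 had 13.5 and 19.8. Serpinh1 was at 9.84 and 11.2 in Sox2, 6.68 and 19.0 in Oct4-L80A, 20.5 and 17.9 in SKO, 19.0 and 16.8 in SKO+shBrg1, 14.1 and 18.3 in SKO-L80A, 11.998 and 10.2 in SKO-L80A+Vc and 13.6 and 13.1 in SKO-L80A+Ga. The deposited values in Klf4 overlapped those of Oct4-L80A, and on the centred scale both Klf4 columns were below the other 18, which held for 4.81% of all genes. The 10 fibroblast markers summed to 104 and 132 in Klf4 against 129 and 194 in Flag. Of them Fn1 was also lower (-1.04), which is 1 of 10 against 0.241% of all genes. The part of these markers in the Serpinh1 value was not tested. The start window of Serpinh1, shown as that of the one member called in Klf4, is on the minus strand at chr7:99353190-99353489 and holds none of the 4 motifs.
Serpinh1: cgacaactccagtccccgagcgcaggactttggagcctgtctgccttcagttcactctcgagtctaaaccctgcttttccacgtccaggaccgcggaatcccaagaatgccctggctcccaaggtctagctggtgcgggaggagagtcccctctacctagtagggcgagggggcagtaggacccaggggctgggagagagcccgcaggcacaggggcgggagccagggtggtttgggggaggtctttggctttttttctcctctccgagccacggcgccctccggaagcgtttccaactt

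Of clade B, 4 genes had their highest signal in Klf4, without a call. Serpinb5, Serpinb11, Serpinb6c and Serpinb9b had both Klf4 columns above the other 18 columns (4 of 61, 6.56%, against 3.75% of all genes centred, 1.57% as deposited and 5.78% in percentile rank, with the same 4 members on each scale). In percentile rank this share is near the background, so the count is no result about serpins and the values that follow are a description. Without the minimum signal Serpinb5, Serpinb11 and Serpinb6c, and also Serpinb12, were past 2-fold (4 of 61, against 2.02% of all genes), and none could be called. In the other direction Serpinh1, Serpina16, Serpina3b, Serpina3g and Serpind1 were past 2-fold without the minimum (5 of 61, against 0.71% of all genes). Over clade B as a whole, 24 of 26 members had more signal in Klf4 than in Flag on both scales, 14 of them in both columns centred. Among all genes 38.8% had more centred, 55.7% as deposited and 23.6% in both columns centred. Of the 17 clade B members with a Flag mean below 1, 16 had more signal on both scales, against 52.7% centred and 78.0% as deposited of the 5870 genes in that range. Among them Serpinb3b and Serpinb3c, whose signals are nearly equal, each differed by only 0.005 centred. Some lay under the pseudocount of 0.138 in both libraries, such as Serpinb3a with means of 0.0905 in Flag and 0.125 in Klf4. The clade B median was 0.19 centred, against -0.10 for all genes and -0.10 for clade A, where 9 of 24 members had more centred and 14 as deposited. These values describe 1 Klf4 library with no replicate.

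Serpinb5 (maspin, a clade B serpin of epithelia that does not inhibit proteases in the classical way; chromosome 1, 106861175 to 106883348) had Klf4 values of 2.94 and 3.84 and Flag values of 0.963 and 0.836, a log2 difference of 1.63 (3.10-fold). It had 1.05 and 1.37 in SKO, which also carries Klf4, and no column outside Klf4 was above 1.90. Serpinb11, in the same array (chromosome 1, 107362314 to 107380475), had Klf4 values of 1.40 and 2.14 and Flag values of 0.183 and 0.103, a log2 difference of 2.62 (6.17-fold). In SKO it had 0.213 and 0.281, so the Klf4 library stood alone for this gene. Between both genes lie Serpinb12, whose values are given above, and Serpinb13 and the Serpinb3 copies, which stayed below 1. Serpinb7, next to Serpinb11 and known from skin, had Klf4 values of 0.753 and 0.870 and Flag values of 0.472 and 0.314. At the Klf4 gene itself the signal was 166 and 146 in the Klf4 library, 78.5 and 66.6 in SKO, and 12.6 and 17.8 in Flag. Whether this had a part in the differences between Klf4 and SKO was not tested.

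On chromosome 13, Serpinb6c (33879816 to 33905726), a mouse relative of Serpinb6a, had Klf4 values of 2.85 and 3.32 and Flag values of 1.19 and 1.23, a log2 difference of 1.13. Serpinb9b (33027414 to 33040588), a mouse relative of the granzyme inhibitor Serpinb9, had Klf4 values of 6.71 and 7.11 and Flag values of 2.56 and 4.21, a log2 difference of 0.92. Its Klf4 mean of 6.91 lay just under the minimum of 6.92, and its difference just under 2-fold. The open neighbours did not go with them: Serpinb6a differed by 0.05 and Serpinb9 by -0.25 in Klf4 against Flag.

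The start windows of these 4 genes are shown because they were apart in the same library. Each covers 250 bases before to 50 after the start that the RefSeq window table gives (GRCm38.p6), 5′ to 3′ on the gene's strand. For Serpinb6c that start lies inside the gene span printed above, so its window lies within the gene. The windows are in lower case, and capitals mark matches to the 4 motifs. They lie at chr1:106860925-106861224 (plus strand), chr1:107362064-107362363 (plus), chr13:33905142-33905441 (minus) and chr13:33027164-33027463 (plus).
Serpinb5: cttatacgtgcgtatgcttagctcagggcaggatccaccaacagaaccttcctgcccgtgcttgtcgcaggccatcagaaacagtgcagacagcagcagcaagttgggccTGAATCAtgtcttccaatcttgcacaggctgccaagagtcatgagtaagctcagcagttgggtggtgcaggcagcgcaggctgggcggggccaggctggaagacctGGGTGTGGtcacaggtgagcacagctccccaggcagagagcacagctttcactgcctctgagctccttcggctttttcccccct
Serpinb11: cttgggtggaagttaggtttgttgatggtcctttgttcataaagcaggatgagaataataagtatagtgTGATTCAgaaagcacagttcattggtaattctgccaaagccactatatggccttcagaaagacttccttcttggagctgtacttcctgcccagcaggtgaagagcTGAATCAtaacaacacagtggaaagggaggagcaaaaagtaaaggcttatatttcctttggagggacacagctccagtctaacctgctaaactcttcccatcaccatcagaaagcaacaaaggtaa
Serpinb6c: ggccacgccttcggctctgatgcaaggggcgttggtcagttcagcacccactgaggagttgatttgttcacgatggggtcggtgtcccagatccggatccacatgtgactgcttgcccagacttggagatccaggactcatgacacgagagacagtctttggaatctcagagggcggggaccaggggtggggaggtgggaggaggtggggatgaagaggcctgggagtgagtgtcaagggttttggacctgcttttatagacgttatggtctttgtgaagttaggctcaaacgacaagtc
Serpinb9b: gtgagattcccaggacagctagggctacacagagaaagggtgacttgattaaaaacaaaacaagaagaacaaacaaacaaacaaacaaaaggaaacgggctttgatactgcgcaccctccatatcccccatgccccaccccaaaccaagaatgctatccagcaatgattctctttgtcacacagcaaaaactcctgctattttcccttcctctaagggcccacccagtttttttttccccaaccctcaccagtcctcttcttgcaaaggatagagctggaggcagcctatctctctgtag
The Serpinb5 window holds GGGTGTGG, a Klf match, from 34 bases before the start and TGAATCA, an AP-1 match, from 140 bases before it. The Serpinb11 window holds TGATTCA and TGAATCA, both AP-1 matches, from 181 and 76 bases before the start, and no Klf match. The windows of Serpinb6c and Serpinb9b hold none of the 4 motifs. A match names letters in the window and not a bound site.

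**Figure D5:**
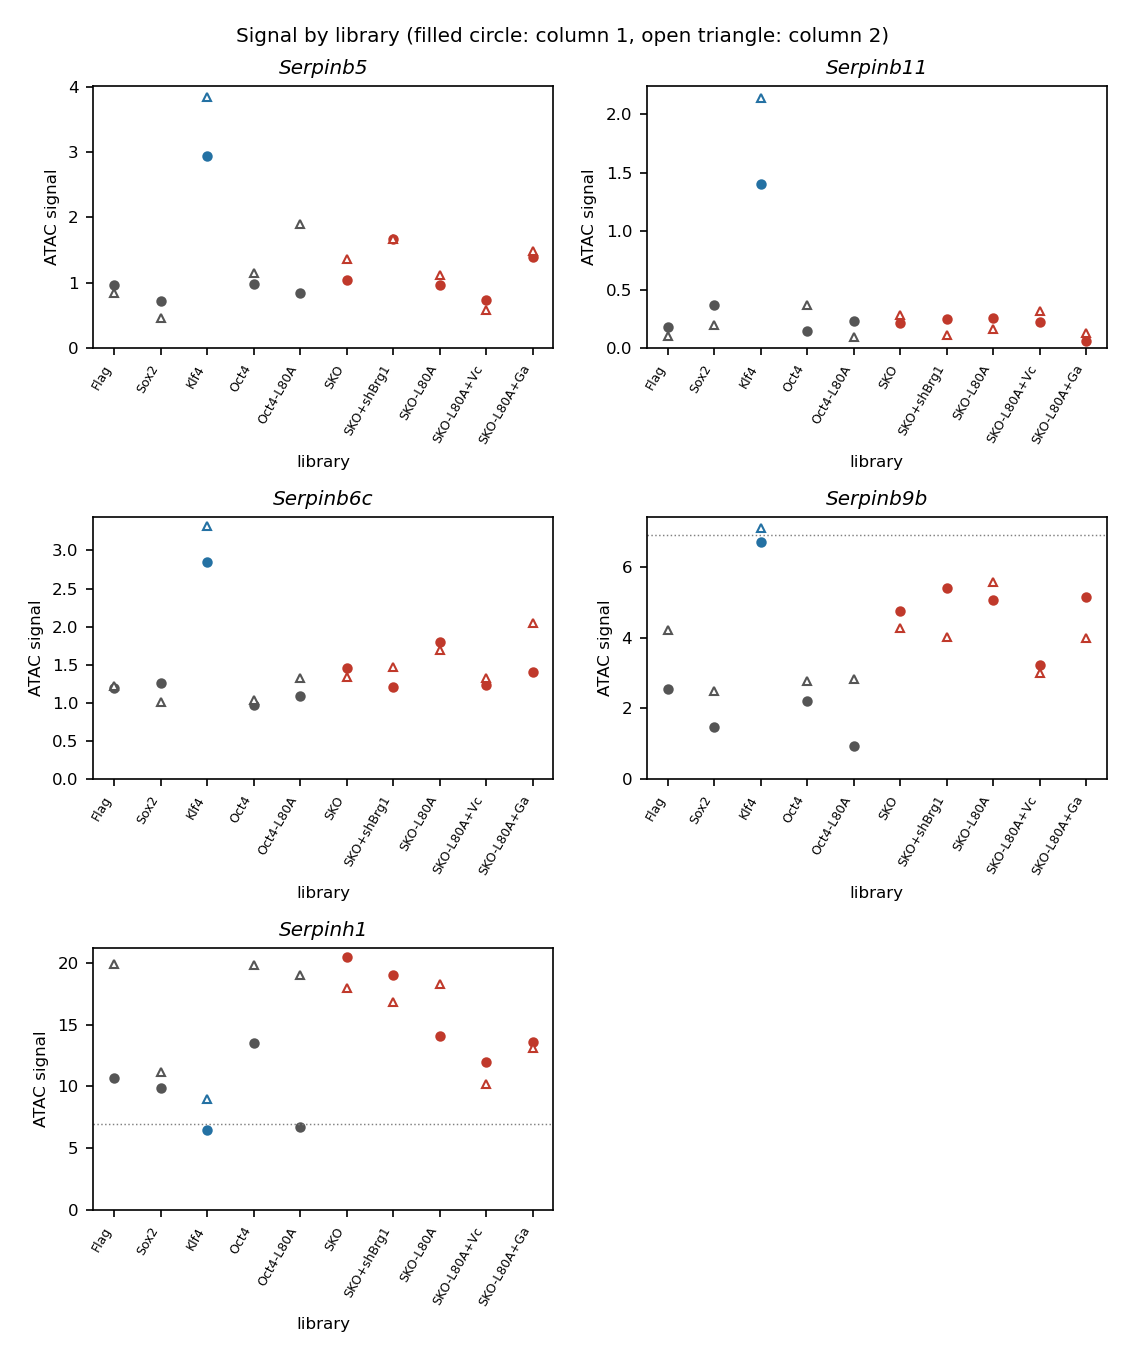
Deposited signal of Serpinb5, Serpinb11, Serpinb6c, Serpinb9b and Serpinh1 in the 10 libraries, with column 1 as filled circles, column 2 as open triangles and the minimum signal as a dotted line where it falls in range. Klf4 (blue) is above every other library for the first 4 genes. For Serpinh1 it is at the low end, overlapping with Oct4-L80A.

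Epithelial markers differed in the same library. Their sum was 30.1 and 42.4 in Klf4 against 15.3 and 24.4 in Flag, with Dsp (desmoplakin) called higher at 6.94 and 10.1 against 2.75 and 5.07. In SKO the sum as deposited was 56.1 and 49.3, and Serpinb5 and Serpinb11 were not at their Klf4 levels. The order of the markers depended on the scale. Centred, their median difference from Flag was 0.69 in Klf4 and 0.08 in SKO, against -0.10 and -0.23 for all genes. The part of such markers in the clade B values was not tested.

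Serpine3 had more signal than Flag in several libraries, with the highest means in the library labelled Oct4 and in Oct4-L80A. Serpind1 had more in 1 column of Oct4-L80A. Serpine3, a clade E gene that overlaps Ints6, had Flag values of 0.898 and 1.58. The library labelled Oct4 had 3.26 and 3.13, a log2 difference of 1.02, and Oct4-L80A had 2.38 and 4.32, a log2 difference of 1.54. Serpind1 (heparin cofactor II, a thrombin inhibitor), which lies within Pi4ka, had 1.35 and 4.74 in Oct4-L80A, where column 2 alone was high, and Flag values of 1.08 and 1.24. The library labelled Oct4 had 1.40 and 1.23. Both were under the minimum signal, and on the centred scale both had their Oct4-L80A columns above the other 18 (2 of 61, against 1.29% of all genes). As deposited 0 members did. Serpine2, of the same clade as Serpine3, had SKO values of 6.59 and 4.28 and Flag values of 2.53 and 3.26, a difference of 0.13 centred and 0.86 as deposited.

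Serpina3b, Serpina3g and Serpina16, clade A genes of the chromosome 12 array, had their highest signal in Flag, at low values. Serpina3b had 1.02 and 1.77 in Flag and at most 0.754 in any other column. Serpina16 had 1.65 and 2.38 in Flag and at most 1.59 elsewhere. Neither reached the minimum in any library. As deposited these 2 were the members with both Flag columns above the other 18 (2 of 61, against 0.196% of all genes). Centred, 3 of 61 members were, Serpina3b and Serpina3g among them but not Serpina16, against 4.08% of all genes, a share near the background. Serpina3g had its highest value, 3.21, in Flag, but its other Flag column, 1.47, overlapped with SKO.

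Every other comparison gave 0 members in either direction. For Sox2 against Flag the shares of all genes called were 0.0592% higher and 0.114% lower, and for the library labelled Oct4 against Flag 0.127% and 0.1%. For Oct4-L80A they were 0.00911% and 0.00455% against Flag, and 0.0273% and 0.146% against the library labelled Oct4, which differs from it in Sox2 as well. For SKO-L80A against SKO they were 0.00911% and 0%, for SKO+shBrg1 against SKO 0.00455% and 0%, for SKO-L80A+Vc against SKO-L80A 0% and 0.00455%, and for SKO-L80A+Ga against SKO-L80A 0% and 0%. So few genes of the table passed in these pairs that 0 of 61 says little about serpins.

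Without the minimum signal, some members passed 2-fold in these pairs on the centred scale. Serpina3b was lower in Sox2 (1 of 61, against 0.46% of all genes) and, with Serpina16, in the library labelled Oct4 (2 of 61, against 1.06%), where Serpine3 was higher (1 of 61, against 0.624%). In Oct4-L80A against Flag, Serpina9, Serpinb9c, Serpind1 and Serpine3 were higher (4 of 61, against 0.956%) and Serpina3g lower (1 of 61, against 0.114%). Between Oct4-L80A and the library labelled Oct4, 10 members had more signal in the mutant (against 5.48% of all genes), among them Serpinb13, Serpina16 and Serpind1. Against SKO-L80A, 7 members were past 2-fold with vitamin C (against 3% of all genes), all of clade A except Serpinb2, and Serpina12 (vaspin) with Gadd45a (1 of 61, against 0.405%). In each of these the higher mean signal of the pair was under 6.92, so none was a call. Low genes of the whole table moved with the centring in the pairs whose medians follow. Those with a Flag mean below 1 had a median of 0.67 centred and 0.16 as deposited for Oct4-L80A against the library labelled Oct4. The medians were 0.57 and -0.01 with vitamin C, and 0.32 and 0.01 with Gadd45a, so the counts of these pairs are no result about serpins. Of the members past 2-fold against Flag, Serpina9 and Serpinb9c had Flag means below 1, where the centred Oct4-L80A median was 0.38. The others had Flag means above 1. Genes from there to the minimum had centred medians of 0.04 (Sox2), -0.06 (Oct4 label) and 0.09 (Oct4-L80A). The part of the centring in the counts against Flag was not tested, and they describe 1 library each.

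Among members at the minimum signal, the extremes in these pairs were small. In SKO-L80A against SKO they were Serpinh1 at -0.27 and Serpinf1 at 0.38, and in SKO+shBrg1 against SKO Serpina3i at -0.39 and Serpinf1 at 0.27. Serpinf1 had 6.23 and 4.55 in SKO, 6.64 and 7.45 in SKO-L80A and 7.63 and 6.61 in SKO+shBrg1. In SKO-L80A+Vc against SKO-L80A they were Serpinf1 at -0.18 and Serping1 at 0.16, and with Gadd45a Serping1 was lowest at -0.17. For Serpina3i the columns of SKO+shBrg1 against SKO were 0.03 and -0.82, and vitamin C and Gadd45a were compared with SKO-L80A only. Against Flag, the largest positive values at the minimum were Serpinb8 at 0.12 in Sox2, 0.19 in Klf4 and 0.03 in Oct4-L80A, and Serpinb6a at 0.09 in the library labelled Oct4. Between Oct4-L80A and the library labelled Oct4 they were Serpinb6a at -0.27 and Serpinb9 at 0.09.

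The genes that serpins act with were counted by the same rule. Of 35 serpin target proteases, 1 was higher in SKO than in Flag (against 0.769% of all genes) and 0 were called in the other 9 comparisons. This was F2 (prothrombin, the target of antithrombin and heparin cofactor II), with SKO values of 17.4 and 10.3 and Flag values of 1.34 and 1.31, 5.56-fold higher (log2 difference 2.48). Its inhibitors Serpinc1 and Serpind1 had 1.02 and 1.22, and 0.519 and 0.925, in SKO. Of 15 receptors and cofactors of serpins and of 23 genes for other protease inhibitors, 0 were called in any of the 10 comparisons. No comparison had more than 0.769% of all genes called in a direction, so these counts say little about the lists. The median difference in SKO against Flag was -0.32 for the proteases, 0.07 for the receptors and cofactors and -0.12 for the other inhibitors, against -0.23 for all genes.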

How the data were processed

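ATAC-seq libraries from 10 conditions of infected mouse fibroblasts were used, 1 library each. The authors deposited a table of signal per gene (a density, never negative) in 20 columns. Per the submitters' processing notes the build was mm10, and the tools were DESeq2 1.22.2, bedtools 2.25.0, deepTools, MACS2 2.1.0, Picard, SAMtools 1.3.1, Bowtie2 2.2.5, cutadapt 1.13 and Trimmomatic 0.35. Counting window, scaling and the step of each tool were not given in the sources used here. A wide window could give a gene its neighbour's signal, and no counting interval can be had.

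From the deposited signal, log2(signal + 0.138) was computed (pseudocount: the 10th percentile of values above 0), centred per column on the median gene and averaged over both columns (Python 3.11.15, pandas 2.3.3, NumPy 2.4.6). Calls needed 2-fold and a mean signal of 6.92 in the higher condition. The whole table was used for every difference and background share. Alternatives were a pseudocount 4 times larger or smaller, no minimum or one at the 75th percentile, no centring, quantile normalisation and each column alone.

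Coordinates, start distances and 300-base start windows came from RefSeq tables (GRCm38.p6, the build of mm10), matched by symbol. Windows were aligned with Biopython 1.88, without penalty for end gaps. All 61 members had coordinates and 52 a window.

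The members, gene lists and tests were chosen with earlier results of these data known. Named with values were all called members, the 5 highest and 5 lowest in Flag, a set list of well-known members and the extremes of each comparison, except 1 member that is not reported here. Comparing one set of libraries with all others, percentile ranks, shared start signal, neighbours, arrays, the windows printed and the members named only for these were added after the values were seen.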

Additional observations from a re-analysis of the deposited data

How the results depend on the processing

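Of 160 counts of called members under the alternatives, 143 stayed within 1.5 times the count reported and 17 moved. Without a minimum signal, members below it entered: 1 was lower in Sox2 against Flag, 4 were higher and 5 lower in Klf4 against Flag, 1 was higher and 2 lower in the library labelled Oct4 against Flag, 4 were higher and 1 lower in Oct4-L80A against Flag, and 10 were lower in SKO against Flag. In the same way, still centred, 10 had more signal for Oct4-L80A than for the library labelled Oct4. Against SKO-L80A, 7 had more in SKO-L80A+Vc and 1 in SKO-L80A+Ga. At the 75th percentile minimum of 16.5, 0 members were higher in SKO, since Serping1 and Serpina3i lie below it, and 0 lower in Klf4. The call of Serpinh1 in Klf4, just past 2-fold, was also lost (0 members) with the larger pseudocount, without centring and after quantile normalisation. In column 2 alone 1 member, Serping1, was higher in Klf4. Of 1840 log2 differences of named members under the alternatives 189 moved, 104 of them without centring. A reversal could be counted only for the called differences, those of Serping1 and Serpina3i in SKO and Serpinh1 in Klf4, and 0 reversed. No paired analysis was possible because each condition has 1 library and the labels give no replicate numbers. Depth limits cannot be given, since the table holds no counts.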
